A study of Mus musculus with 6 samples.

Results

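Eph receptors and their ephrin ligands were examined in mouse bone marrow mesenchymal stem cells that had been driven towards osteoblasts with or without nickel. The 10 genes described are the receptors Epha2, Epha3, Epha4, Ephb2, Ephb3 and Ephb4 and the ligands Efna1, Efna5, Efnb1 and Efnb2, out of 54532 genes in the table. Epha2 was picked because it was higher with nickel in these same libraries, so its difference is a description and carries no test. Ephb4 and Efnb2 were included for the known link between bone-forming and bone-resorbing cells, and the remaining genes belong to the same family. All 10 passed the filter on low counts.

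All 6 libraries came from wild-type primary mouse cells, plated in MEM α with 10% serum and kept for 7 days in osteogenic medium. That medium held β-glycerophosphate (10 mM), ascorbic acid (50 μg/mL) and dexamethasone (100 nM), as the sample records give it. The Ni group (n = 3) also received 0.1 μM nickel ion, and the control group (n = 3) did not. Messenger RNA was sequenced from whole cultures, and totals ranged from 16101033 to 18642504 counts per library. Age, sex and the number of animals behind each culture are not given in the sources used here.

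Eph proteins form the largest family of receptor tyrosine kinases, and their ligands sit in the membrane of the neighbouring cell, so that a signal passes only on contact. EphA receptors mostly bind ephrin-A ligands, which are held by a lipid anchor, and EphB receptors mostly bind ephrin-B ligands, which cross the membrane. The receptor-bearing cell responds by forward signalling and the ligand-bearing cell by reverse signalling. In bone, ephrin-B2 on osteoclasts and EphB4 on osteoblasts are the best known pair, and ephrin-B1 is needed for normal skull and limb skeletons.

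The sequences below show where transcription of the genes that carry the results begins. They are the 250 bases just before the RefSeq start of Epha2, Epha3 and Efnb1, the 3 members with the largest log2 fold change, and of Ephb4 and Efnb2, the osteoblast and osteoclast pair. They are printed 5′ to 3′ on the gene's own strand, from GRCm38.p6, with capitals marking a GC box (GGGCGG or its reverse CCGCCC, the core bound by Sp1-like factors).
Epha2, chr4:141300971-141301220, plus strand: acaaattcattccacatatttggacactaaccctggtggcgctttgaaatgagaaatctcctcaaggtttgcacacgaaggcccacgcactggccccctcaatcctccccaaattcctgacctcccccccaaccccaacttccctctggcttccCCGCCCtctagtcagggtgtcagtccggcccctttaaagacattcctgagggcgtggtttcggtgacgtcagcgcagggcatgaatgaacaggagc
Epha3, chr16:63864176-63864425, minus strand: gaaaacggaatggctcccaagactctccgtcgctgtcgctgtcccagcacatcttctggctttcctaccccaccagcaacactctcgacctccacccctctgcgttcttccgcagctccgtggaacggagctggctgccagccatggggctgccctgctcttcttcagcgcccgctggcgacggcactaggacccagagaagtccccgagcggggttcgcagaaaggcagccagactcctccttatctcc
Efnb1, chrX:99135811-99136060, plus strand: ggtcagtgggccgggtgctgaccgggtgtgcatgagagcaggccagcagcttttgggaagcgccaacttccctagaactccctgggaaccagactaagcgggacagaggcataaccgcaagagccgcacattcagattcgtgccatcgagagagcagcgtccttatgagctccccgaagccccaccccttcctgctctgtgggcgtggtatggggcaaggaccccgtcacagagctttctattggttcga
Ephb4, chr5:137349859-137350108, plus strand: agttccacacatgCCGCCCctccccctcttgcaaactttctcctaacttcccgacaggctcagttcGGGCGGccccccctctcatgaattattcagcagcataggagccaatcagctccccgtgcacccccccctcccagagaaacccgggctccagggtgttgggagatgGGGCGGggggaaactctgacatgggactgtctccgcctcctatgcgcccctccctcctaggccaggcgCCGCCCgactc
Efnb2, chr8:8661243-8661492, minus strand: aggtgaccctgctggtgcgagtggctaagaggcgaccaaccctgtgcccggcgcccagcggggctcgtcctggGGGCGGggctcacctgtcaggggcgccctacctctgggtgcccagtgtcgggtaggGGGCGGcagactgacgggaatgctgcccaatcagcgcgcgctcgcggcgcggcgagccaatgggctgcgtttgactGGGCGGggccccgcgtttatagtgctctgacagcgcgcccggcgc

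The Epha2 window held 1 GC box, beginning 96 bases before the start, whereas the Ephb4 window held 4 and the Efnb2 window 3. The Epha3 and Efnb1 windows held none, and neither did that of Ephb2. A GC box occurred in 32.7% of all 32851 windows of this length in the RefSeq table. The 10 genes matched 11 windows in that table, since Efna1 has a second start. The letters TGTGGT or ACCACA, a core bound by RUNX factors, were in none of the 11, against 14.0% of all windows. The letters ACGTG or CACGT, the core of hypoxia response elements, were in the windows of Epha4 and Ephb3 and in 16.6% of all. The letters TATAAA, those of a TATA box, or their reverse TTTATA were in the Efnb2 window, in none of the windows of the other members, and in 12.4% of all. The Efnb2 match, 30 bases before the start, was TTTATA on the gene's own strand, so TATAAA lay on the opposite strand. G and C made up 55.6% of the Epha2 window and 74.8% of that of Efna5, the lowest and the highest of the members, against a median of 52.4% over all windows. These matches describe letters and say nothing of binding.

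No gene of 14624 tested passed an adjusted p of 0.05 by edgeR's quasi-likelihood test, so the background of calls was 0%. An unadjusted p under 0.05 was reached by 7.59% of genes with higher values in Ni and by 5.83% with lower values. DESeq2 called 256 genes of 14337 with an adjusted p, or 1.79%. The libraries themselves did not sort cleanly. Control replicate 3 lay closer to the Ni libraries than to the other controls, at a mean distance (1 minus the correlation of log2 expression) of 0.0131 against 0.0220. Without that library, 8.69% of 15044 genes were called higher and 6.49% lower by edgeR at an adjusted p of 0.05. Each member is therefore given with and without it. The library was singled out by these same data for its nearness to Ni. Leaving it out therefore tends to widen differences, most where its value was near those of Ni. The adjusted p values of that fit are a description and not independent support. Nothing in the labels of control replicate 3 sets it apart, and whether its label is right was not tested, since no gene was targeted here. Every control mean and fold change from all 6 libraries holds this library as labelled.

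The cultures held more than one kind of cell. The 12 osteoblast markers all had higher values in Ni at an unadjusted p under 0.05 by edgeR and none passed the adjusted one, with a median log2 fold change of 1.03, and 7 of them passed DESeq2. Over the controls, their summed FPKM was 4044, 3805 and 8067. It came to 11064, 8046 and 11105 over the Ni libraries, so by this sum control replicate 3 reached the lowest Ni library. Spp1 alone gave 5417 FPKM of the sum in control replicate 3, and it was the only one of the 12 whose groups overlapped by CPM. For the other 11, every Ni library was above every control, where this held for 7.97% of all genes tested. The 15 macrophage markers summed to FPKM 16320 to 20080 in controls and 16773 to 17135 in Ni, with Lyz2, the lysozyme of myeloid cells, the highest. Endothelial markers, of a cell type rich in Ephb4 and Efnb2, summed to FPKM of only 12.8 to 17.4 in controls and 11.0 to 13.1 in Ni, and 10 of 13 stayed under 1 FPKM in every library. The 12 osteoclast markers summed to FPKM 597, 690 and 363 in the controls and 380, 381 and 355 in Ni, so control replicate 3 lay within the Ni range. Most of this was Acp5, the tartrate-resistant phosphatase that macrophages also make, at a mean of 328 FPKM, followed by Ctsk, cathepsin K, at 73.8 FPKM. Of the 8 tested, 4 had a positive log2 fold change, up to 0.62, and 4 a negative one. At an unadjusted p under 0.05 by edgeR, 3 were lower: Acp5 (log2 fold change −0.90, adjusted p = 0.352), Mmp9 (−0.83, adjusted p = 0.350) and Tnfrsf11a (−0.26, adjusted p = 0.334). Without control replicate 3, edgeR called 1 higher and 2 lower at an adjusted p of 0.05. The fusion genes Dcstamp and Ocstamp, with Oscar and Calcr, were under 1 FPKM throughout. Of 8 neutrophil markers 6 were under 1 FPKM, and Ltf, Ngp and S100a9 had no count. Stromal markers had a median log2 fold change of 0.31, pericyte and smooth muscle markers 0.55, adipocyte markers 0.14, macrophage markers −0.16, endothelial markers −0.11 and osteoclast markers −0.02. In such bulk samples, a change in the number of cells of a type and a change in RNA per cell cannot be told apart, and the part of these cell types in the results below was not tested.

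Epha2 (ENSMUSG00000006445, chr4:141301240-141329384, plus strand) encodes a receptor that binds ephrin-A1 and other ephrin-A ligands in epithelia and in bone cells. Control replicates 1, 2 and 3 had normalized levels (CPM, counts scaled to a common library size) of 5.25, 5.92 and 6.48. Ni replicates 1, 2 and 3 had 13.8, 11.3 and 12.3 CPM. Every Ni library was above every control, including control replicate 3, which was near the Ni libraries in its overall profile. As Epha2 was chosen for its rise, this separation is a description only. The means were 5.88 ± 0.618 and 12.5 ± 1.23 CPM (SD, n = 3 each), a log2 fold change of 1.09 (SE 0.17) or 2.12-fold. Without control replicate 3 the log2 fold change was 1.17. These rest on 94 to 108 counts per control library and 197 to 254 per Ni library.

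Epha3 (ENSMUSG00000052504, chr16:63543534-63864175, minus strand) encodes a receptor for ephrin-A5 that is abundant in embryonic mesenchyme. It stood at 12.8, 8.69 and 22.3 CPM in the controls and at 29.5, 24.1 and 32.5 CPM in Ni. The groups did not overlap, but control replicate 3 came close to Ni replicate 2. The log2 fold change was 0.98 (SE 0.30), with an adjusted p of 0.308 by edgeR and of 0.0286 by DESeq2. When control replicate 3 was left out, it was 1.42 with an adjusted p of 0.000332 by edgeR. Over all 16 alternative settings the adjusted p ran from 0.000332 to 0.815.

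Epha4 (ENSMUSG00000026235, chr1:77367185-77515088, minus strand) encodes a receptor that accepts both ephrin-A and ephrin-B ligands. Its level was 6.83, 6.61 and 4.38 CPM in the controls and 5.10, 5.07 and 5.63 CPM in Ni. The groups overlapped because control replicate 3 was the lowest of the 6 libraries. The log2 fold change was −0.17 (SE 0.22, adjusted p = 0.770 by edgeR). Without control replicate 3 it was −0.35 (SE 0.20, adjusted p = 0.303 by edgeR), and without control replicate 1 it was −0.059.

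Of the 3 EphB receptors, none separated the groups. Ephb2 (ENSMUSG00000028664, chr4:136647539-136835988, minus strand), a receptor best known from axon guidance and the gut crypt, was at 7.54, 10.1 and 13.2 CPM in controls and 11.3, 14.0 and 10.4 CPM in Ni. Its log2 fold change was 0.21 (SE 0.21, adjusted p = 0.705 by edgeR). It was 0.44 (SE 0.20, adjusted p = 0.176 by edgeR) without control replicate 3 and 0.029 without control replicate 1. Ephb3 (ENSMUSG00000005958, chr16:21204755-21223305, plus strand), which often acts together with Ephb2, was nearly level at 7.05, 6.55 and 5.52 CPM against 6.95, 6.04 and 6.46 CPM. Its log2 fold change was 0.02 (SE 0.18, adjusted p = 0.970 by edgeR), and the sign turned to −0.064 without control replicate 3.

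Ephb4 (ENSMUSG00000029710, chr5:137350109-137378669, plus strand), the receptor through which osteoblasts respond to ephrin-B2, had the highest mean FPKM of the receptors over the 6 libraries. In Ni replicate 3, however, Epha3 was above it (3.72 against 3.32 FPKM). By CPM, which is not scaled to length, Epha3 was above it in every Ni library and in control replicate 3 (22.3 against 19.0 CPM). Ephb4 was at 14.5, 16.8 and 19.0 CPM in the controls and at 19.2, 19.9 and 15.5 CPM in Ni. Ni replicate 3 lay below control replicates 2 and 3, so the groups overlapped. The log2 fold change was 0.12 (SE 0.15, adjusted p = 0.775 by edgeR), 0.22 (adjusted p = 0.408) without control replicate 3 and 0.022 without control replicate 1. Of its exon bases, 33 (0.711%) lie opposite exons of Zan, and no other member had any such overlap.

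**Figure D1:**
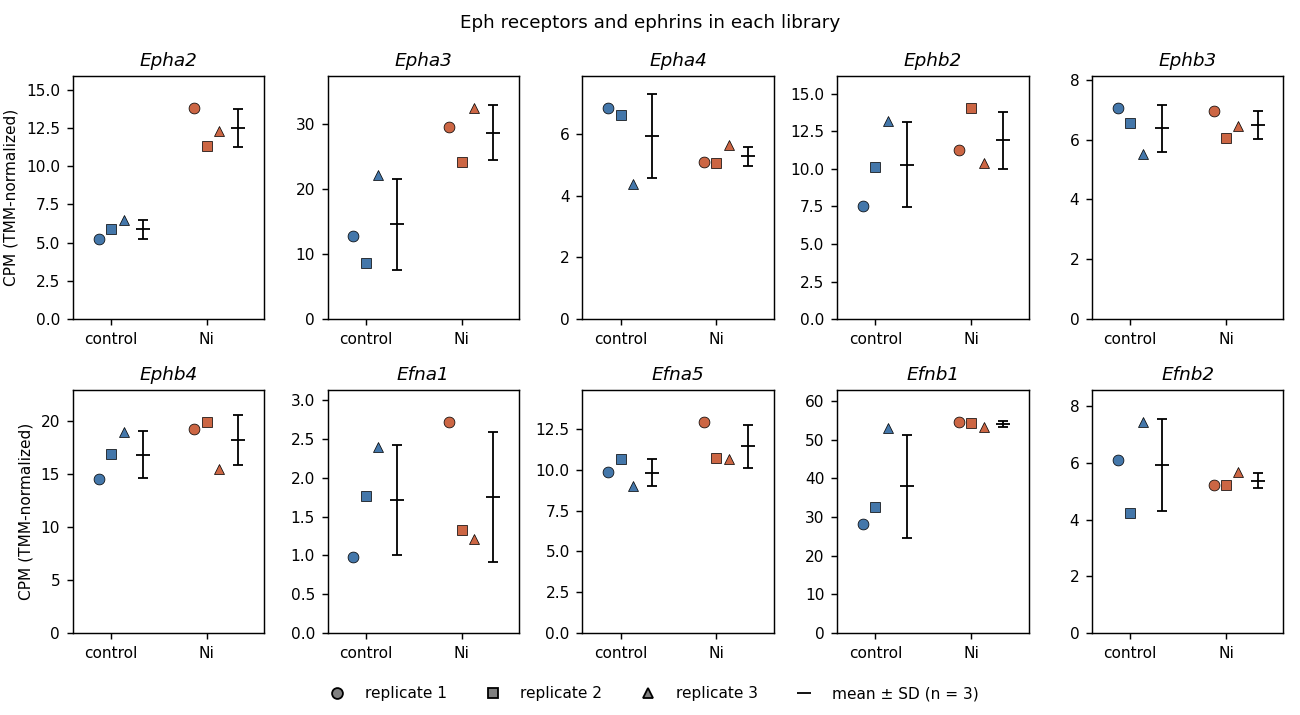
Normalized level (CPM, vertical axis from 0) of each of the 10 genes in each library, with symbols for the replicate and a bar for the mean ± SD of 3 libraries. Epha2, which was chosen for its rise, goes from 6.48 CPM in the highest control to 11.3 CPM in the lowest Ni library. Epha3 and Efnb1 have control replicate 3 next to the Ni libraries.

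Among the ligands, Efna1 (ENSMUSG00000027954, chr3:89271733-89281142, minus strand), a main partner of EphA2, was scarce. Its reads numbered 18, 28 and 40 for the controls and 50, 23 and 22 for Ni, or 0.984, 1.76 and 2.40 CPM against 2.71, 1.32 and 1.22 CPM. The highest and the next to lowest libraries were both in Ni, and the log2 fold change was 0.04 (SE 0.44, adjusted p = 0.982 by edgeR), or 0.37 (SE 0.47, adjusted p = 0.678) without control replicate 3. Efna5 (ENSMUSG00000048915, chr17:62604184-62881317, minus strand), a ligand of EphA3 and EphA4, was at 9.84, 10.6 and 8.998 CPM in controls and 12.9, 10.7 and 10.7 CPM in Ni. The highest control and the lowest Ni library were almost equal, and the log2 fold change was 0.22 (SE 0.15, adjusted p = 0.567 by edgeR). It was 0.16 (SE 0.17, adjusted p = 0.591 by edgeR) without control replicate 3 and 0.12 without Ni replicate 1.

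Efnb1 (ENSMUSG00000031217, chrX:99136130-99148991, plus strand), the ligand needed for skull and limb patterning, was the most abundant member. It was at 28.1, 32.6 and 52.9 CPM in the controls. The Ni libraries were almost equal at 54.5, 54.3 and 53.1 CPM. Control replicate 3 fell just under them, and the other controls were far lower. The log2 fold change was 0.51 (SE 0.21, 1.43-fold), with an adjusted p of 0.356 by edgeR and of 0.200 by DESeq2. Without control replicate 3 it was 0.84 with an adjusted p of 0.000383 by edgeR. With all 6 libraries it was called only when the filter on low counts was dropped (adjusted p = 0.00171 by edgeR). Over all 16 alternative settings the adjusted p ran from 0.000383 to 0.839.

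Efnb2 (ENSMUSG00000001300, chr8:8617434-8661242, minus strand), the ligand that osteoclasts present to osteoblasts, was at 6.12, 4.22 and 7.44 CPM in the controls and 5.21, 5.24 and 5.69 CPM in Ni. The Ni libraries all lay inside the range of the controls. The log2 fold change was −0.14 (SE 0.23, adjusted p = 0.830 by edgeR), and 0.058 without control replicate 3.

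**Figure D2:**
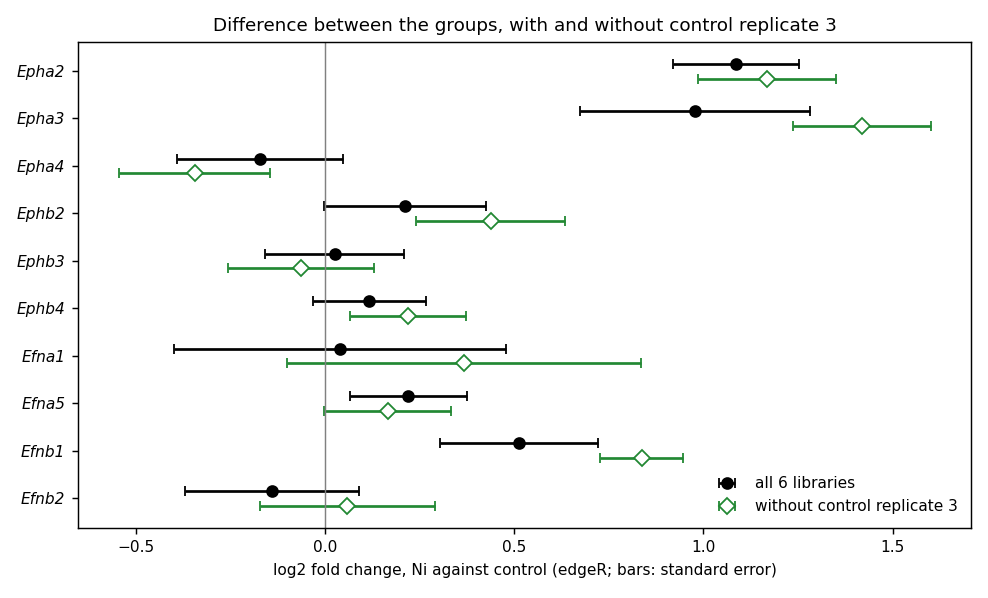
Log2 fold change of Ni against control (horizontal axis, edgeR) for each gene, with bars for 1 standard error, from all 6 libraries (filled) and without control replicate 3 (open). Epha3 moves from 0.98 to 1.42 and Efnb1 from 0.51 to 0.84. Epha2 moves from 1.09 to 1.17, but it was chosen for its rise in these libraries, so this is a description only.

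Besides Epha2, 9 members could be tested. None was called at an adjusted p of 0.05 by edgeR, 2 (Epha3 and Efnb1) were higher at an unadjusted p under 0.05, and DESeq2 called 1 (Epha3). Over all genes, 7.59% were higher at that unadjusted p, and DESeq2 called 1.79% of those with an adjusted p. Without control replicate 3, edgeR called 2 of the 9, again Epha3 and Efnb1, both higher, where 8.69% of all genes tested were called higher. That library was singled out by these same data, so these calls are a description. The 3 Ni libraries were all above the 3 controls in 3 of the 9 (Epha3, Efna5 and Efnb1) and all below in 0, where 7.97% of all genes tested were above and 6.71% below. The median log2 fold change of the 9 was 0.12, against −0.01 over all genes tested, and 2 of the 9 were negative.

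**Figure D3:**
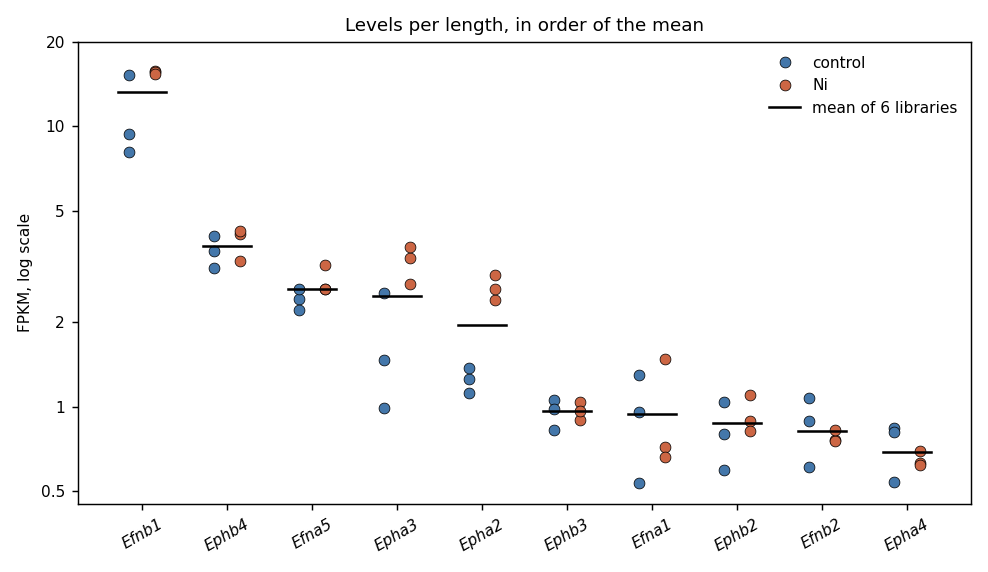
Level per length (FPKM, log axis) of each gene in each control and Ni library, ordered by the mean of the 6 libraries (line). Efnb1, at a mean of 13.2 FPKM, stands clear of Ephb4 at 3.74 FPKM, and the 5 lowest genes all have means under 1 FPKM.

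Levels were compared between genes as FPKM (fragments scaled to library size and to gene length). For each member that length equalled all its annotated exon bases, such as 12608 for Ephb2 and 6855 for Efnb2. The transcripts present may be shorter, which was not tested, and the order, shares and ratios below rest on this length. Over the 6 libraries the order of mean FPKM was Efnb1 at 13.2 ± 3.50, Ephb4 at 3.74 ± 0.463, Efna5 at 2.62 ± 0.328, Epha3 at 2.47 ± 1.07 and Epha2 at 1.95 ± 0.794 (SD, n = 6). Below 1 FPKM came Ephb3 at 0.962 ± 0.0879, Efna1 at 0.941 ± 0.377, Ephb2 at 0.874 ± 0.182, Efnb2 at 0.819 ± 0.155 and Epha4 at 0.691 ± 0.118. The spread separated neighbours in this order at only 2 places: every library of Efnb1 was above every library of Ephb4, and the same held for Epha2 over Ephb3. Among all genes tested, Efnb1 stood at the 74.4 percentile of mean FPKM and Epha4 at the 14.1 percentile. The order was nearly the same in both groups. Epha3 was 4th in controls and 3rd in Ni, changing places with Efna5, and Ephb2 and Efnb2 changed places further down.

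Among the 6 member receptors, the EphA class made up more of the summed FPKM in Ni than in controls. Receptors outside the members, such as Ephb6 at a mean of 1.08 FPKM, are not in these sums. Its share was 41.8%, 36.3% and 43.0% in the controls and 53.5%, 48.0% and 58.0% in Ni. The share of Ephb4 was 38.0%, 42.6% and 39.1% in the controls and 31.6%, 35.3% and 27.3% in Ni. Neither share overlapped between groups, but both sums contain Epha2, which was chosen for its difference, so no test is given. Summed FPKM of the 3 member EphB receptors ran from 4.76 to 5.91 in controls and from 5.11 to 6.24 in Ni.

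Efnb1 supplied most of the ligand RNA. Its share of the summed FPKM of the 4 ephrins was 67.8%, 69.1% and 76.8% in controls and 74.3%, 79.2% and 78.8% in Ni, with overlap at control replicate 3. Per length, Efnb1 exceeded the other ephrin-B member, Efnb2, by 9.11, 15.4 and 14.1 times in controls and by 20.8, 20.6 and 18.5 times in Ni. These ratios did not overlap, but no test was made, and how often ratios of other gene pairs separate the groups was not computed. Efnb2 rests on 67 to 124 counts per control library and 91 to 103 per Ni library.

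For the osteoblast and osteoclast pair, the FPKM of Ephb4 exceeded that of Efnb2 by 3.51, 5.89 and 3.76 times in controls and by 5.43, 5.60 and 4.02 times in Ni. Ephb4 was above Efnb2 in all 6 libraries, and the ratios of the groups overlapped. The ratio of Epha2 to Efna1 was 2.09, 1.31 and 1.06 in controls and 1.99, 3.35 and 3.97 in Ni. Here Ni replicate 1, the library richest in Efna1, was below control replicate 1.

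**Figure D4:**
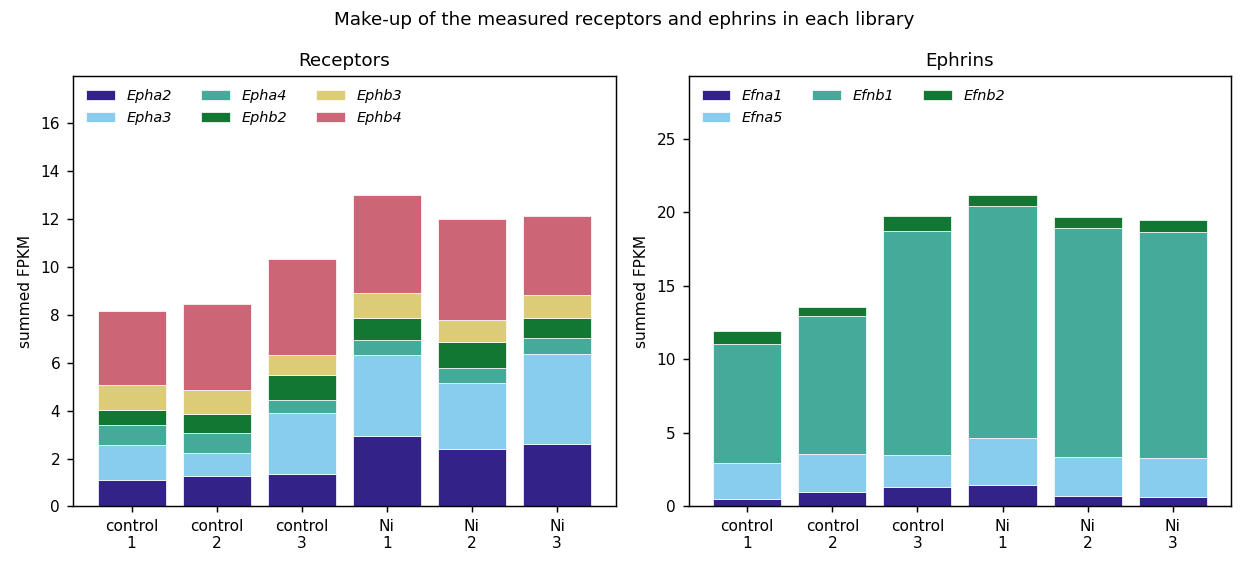
Summed FPKM of the 6 receptors (left) and the 4 ephrins (right) in each library, stacked by gene. Receptor sums were 8.18 to 10.4 in controls and 12.0 to 13.0 in Ni, mostly through Epha2 and Epha3, and control replicate 3 matched the Ni libraries in its Efnb1.

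Within a family of related sequences, reads could be shared between members. The coding sequences of Ephb2 and Ephb3 were the most alike of the receptors at 73.0% identity, and those of Epha3 and Ephb4 the least at 61.8%. Those of Efnb1 and Efnb2 were 66.1% identical and those of Efna1 and Efna5 63.7%. No 50-base stretch of any member occurred in another family gene. At most 0.221% of such stretches, in Ephb2, occurred in any other gene.

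Of the 12 other Eph and ephrin genes, 9 had a count and 4 passed the filter. None of the 4 was called by edgeR at an adjusted p of 0.05, and 1 (Efna2) was higher at an unadjusted p under 0.05, against 7.59% of all genes tested. Efna2, a ligand studied in osteoclasts together with Epha2, had 33, 35 and 45 counts in controls and 73, 71 and 59 in Ni. All Ni libraries were above all controls, with a log2 fold change of 0.75 (SE 0.26, adjusted p = 0.313 by edgeR) that passed narrowly without control replicate 3 (adjusted p = 0.0499 by edgeR). Efna3 had 10, 3 and 11 counts in controls and 18, 13 and 15 in Ni, also apart, with a log2 fold change of 0.85 (SE 0.51, adjusted p = 0.477 by edgeR). Efna4 had a log2 fold change of 0.19 (SE 0.31, adjusted p = 0.834 by edgeR), and the kinase-dead receptor Ephb6 one of 0.16 (SE 0.23, adjusted p = 0.796 by edgeR). Opposite-strand genes cover 14.1% of the exon bases of Efna3 and 10.5% of those of Efna4, and the kit is not stated to keep strand, so these values may hold reads of their neighbours.

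The rest of the family was at or near the limit of detection. Epha1 had 7 to 19 counts per library, Epha7 4 to 9, Ephb1 2 to 5 and Efnb3 0 to 7. Epha5 had 1 count in 1 library. No count was seen for Epha6, Epha8 and Epha10, receptors of the nervous system or testis. None of these passed the filter with all 6 libraries. Epha1 passed it without control replicate 3, with a log2 fold change of −0.014 (SE 0.62, adjusted p = 0.992 by edgeR).

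Signals of Eph receptors and ephrins run, among others, through adaptors, kinases, phosphatases, PDZ proteins and proteases. Of 43 such genes listed in these 5 roles, 40 passed the filter. None was called by edgeR or DESeq2 at an adjusted p of 0.05. By edgeR, an unadjusted p under 0.05 was reached by 5 that were higher and 3 that were lower, where the shares over all genes tested were 7.59% and 5.83%. The median log2 fold change was 0.058, with 26 positive and 14 negative values, against 7028 positive and 7596 negative over all genes tested. Without control replicate 3, edgeR called 5 of the 40 higher (Grb10, Src, Rgs3, Mmp14 and Rhbdl2) and 6 lower (Grb2, Sla, Ptpn1, Sdcbp, Adam17 and Psen2) at an adjusted p of 0.05. Over all genes tested, that fit called 8.69% higher and 6.49% lower. Sla and Psen2 were named after their values were seen. The values that follow are from all 6 libraries unless stated.

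Of the 12 adaptors tested, 6 had a positive and 6 a negative log2 fold change. Grb10, which binds activated receptors, was at 118, 102 and 160 CPM in controls and 205, 157 and 199 CPM in Ni, a log2 fold change of 0.56 (SE 0.17, adjusted p = 0.296 by edgeR) with overlap at control replicate 3. Grb2, the link from receptors to Ras and the most abundant adaptor, had a log2 fold change of −0.30 (SE 0.13, adjusted p = 0.375 by edgeR). The 7 tyrosine kinases tested all had a positive value, with a median log2 fold change of 0.20, where 7028 of all 14624 genes tested were positive. Some values were smaller than their SE, such as Abl1 (0.063, SE 0.10) and Abl2 (0.046, SE 0.12). Src, a kinase of both forward and reverse signalling, was at 18.2, 20.8 and 27.1 CPM in controls and 31.1, 28.8 and 29.1 CPM in Ni, a log2 fold change of 0.43 (SE 0.15, adjusted p = 0.311 by edgeR). Fyn, the most abundant of these kinases, had one of 0.06 (SE 0.09, adjusted p = 0.823 by edgeR).

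Ptpn1, a phosphatase that dampens EphA signals and the most abundant of its class, had a log2 fold change of −0.46 (SE 0.21, adjusted p = 0.377 by edgeR). Of the partners that bind ephrin-B tails, Rgs3 was at 61.7, 60.7 and 71.9 CPM in controls and 92.0, 74.6 and 87.8 CPM in Ni, a log2 fold change of 0.39 (SE 0.11, adjusted p = 0.292 by edgeR) with no overlap. Sdcbp (syntenin), the most abundant of that class, was lower in every Ni library than in any control. The gap was small, from 685.9 CPM in control replicate 3 to 680.5 CPM in Ni replicate 1. The log2 fold change of Sdcbp was −0.23 (SE 0.12, adjusted p = 0.415 by edgeR).

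The 8 proteases, several of which cut Eph proteins or ephrins from the surface, were split into 4 positive and 4 negative values. Mmp14, a membrane metalloprotease that cleaves EphA2 and the most abundant of the class, was at 225, 241 and 346.0 CPM in controls and 383, 362 and 346.2 CPM in Ni. The lowest Ni library and control replicate 3 were almost equal, and the log2 fold change was 0.43 (SE 0.16, adjusted p = 0.334 by edgeR). Without control replicate 3 it was 0.65 (adjusted p = 0.000503 by edgeR). Adam17, a sheddase, was at 224, 225 and 210 CPM in controls and 178, 170 and 193 CPM in Ni, a log2 fold change of −0.28 (SE 0.10, adjusted p = 0.309 by edgeR) with no overlap. Rhbdl2, an intramembrane protease named after its values were seen, had 5, 7 and 20 counts in controls and 34, 19 and 41 in Ni. Its log2 fold change was 1.44 (SE 0.54, adjusted p = 0.334 by edgeR), with overlap at control replicate 3, and 2.28 (adjusted p = 0.0153) without that library.

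**Figure D5:**
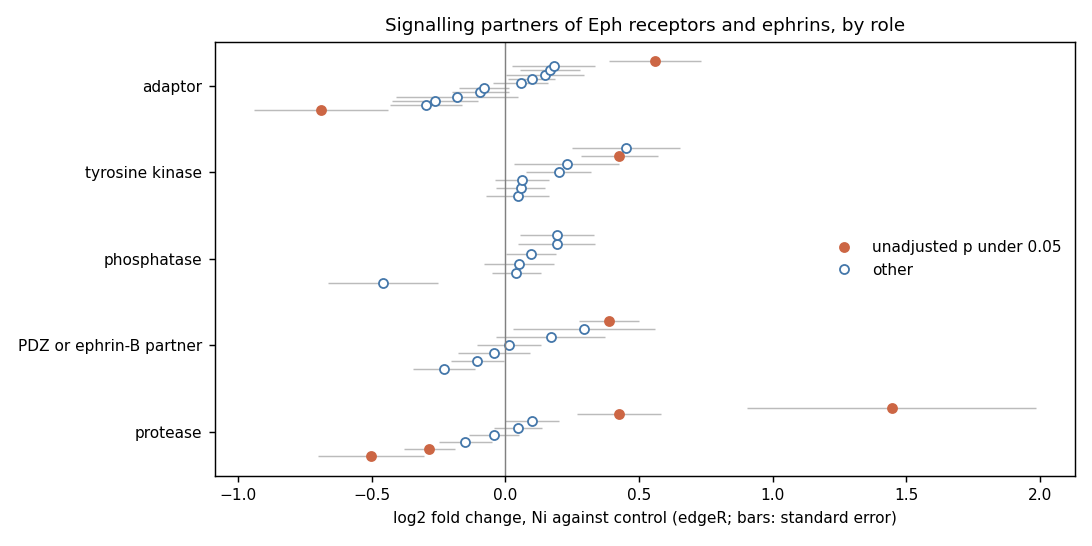
Log2 fold change of Ni against control (horizontal axis, edgeR) for the 40 signalling genes tested, grouped by role, with bars for 1 standard error and filled points for an unadjusted p under 0.05. The highest value, 1.44, is the protease Rhbdl2. The tyrosine kinases all lie above 0, some by less than 1 standard error, and the other roles lie on both sides of 0.

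The genes most like Epha2 across the 6 libraries were sought among 9971 genes by the root mean square difference of centred log2 CPM. They were Ndufa4l2 (0.127), a mitochondrial protein, Pard6g (0.131), of the cell polarity complex, Cspg4 (0.142), the NG2 proteoglycan, Cyp26b1 (0.144), which breaks down retinoic acid, and Ptgis (0.147), prostacyclin synthase. Their log2 fold changes ran from 0.92 for Pard6g and Ndufa4l2 to 1.21 for Cspg4. As the search looked for profiles like that of Epha2, values near its own follow from the search. Nearest to Ephb4 were Clba1 (0.0464), Ruvbl1 (0.0474) and Agap3 (0.0475), and nearest to Efnb2 were Odf2l (0.0786), Tfrc (0.0819) and Zfp760 (0.0969). Among the members themselves, Ephb3 and Efna5 were the closest pair (0.127) and Epha3 and Epha4 the farthest apart (0.842). With 6 libraries, many genes reach such values, and no test was made.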

How the data were processed

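Libraries of 6 cultures were made from mRNA with a NEBNext Ultra kit, per the labels. The submitters' processing notes name GRCm38. The aligner and counting tool are not given in the sources used here. The authors deposited whole-number counts per gene, without normalization, and FPKM values. The deposited FPKM equalled counts over gene length after scaling each library, to within a relative 3.29e-07. Samples were grouped by their titles. The series describes the replicates as independent, and chi-square per degree of freedom between libraries of a group was 4.56 to 47.2, so none was a duplicate.

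Counts were filtered by filterByExpr, scaled by TMM and tested by the robust quasi-likelihood test of edgeR 4.0.16 (prior count 0.125) in R 4.3.3, with Benjamini-Hochberg adjustment over all 14624 genes. SE was obtained as the log2 fold change over the square root of F. An exact permutation test of 3 against 3 libraries cannot go below p = 0.1 and was not used. DESeq2 1.42.0, limma 3.58.1 on log2(FPKM + 1) and log2(FPKM + 0.1), other scalings, filters and leaving out each library were alternatives. Likeness used log2 CPM with a prior count of 2, for genes of mean log2 CPM 3 or more. Coding sequences from GENCODE M21 were aligned with Biopython 1.88, and promoters came from RefSeq on GRCm38.p6. The pipeline was tested on simulated data.

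The genes named were all members and every other family gene. From the signalling lists came the gene of highest mean FPKM per role, called the most abundant, and the 8 of smallest p. A further class of signalling genes is not reported here, and those of the 8 in it are left out. The members and lists were chosen with earlier results of these data known. The sample records and the study's methods give different dexamethasone doses, and that of the records is printed.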

Additional observations from a re-analysis of the deposited data

How the results depend on the processing

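Beside 0 genes called by edgeR at an adjusted p of 0.05 (1963 at an unadjusted p under 0.05), DESeq2's Wald test called 256 and limma on log2(FPKM + 1) 2. Without the filter on low counts edgeR called 1027, and 3057 at an unadjusted p. Of the 9 members tested, DESeq2 called 1, the unfiltered test 2 and edgeR on all libraries 0. Of the other family genes and all 65 signalling genes listed, those not reported here included, DESeq2 called 2 and the unfiltered test 10, where the main test called 0. Leaving out 1 library at a time gave 0 to 2283 called genes and 868 to 4125 at an unadjusted p, 0 to 2 called members, 0 to 18 called family and signalling genes, and 6 to 27 of these at an unadjusted p (13 with all libraries). The highest values came without control replicate 3, and no other omission called over 13 genes.

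The correlations of same-numbered deviations were 0.01, 0.26 and 0.14. They were not compared with those of differently numbered libraries, so whether replicate numbers pair the samples was not tested. With a replicate block, 315 genes, 1 member and 2 family and signalling genes were called. Adding the removal of a gene-length trend to that block gave 256, 1 and 2.

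Of 160 refitted member fold changes, 155 kept their sign. Efna1 ran from −0.43 to 0.37 when 1 library was left out (−0.25 without control replicate 1, −0.43 without Ni replicate 1). Ephb3 ran from −0.064 to 0.11 (−0.064 without control replicate 3, −0.03 without Ni replicate 1), and Efnb2 from −0.33 to 0.058 (0.058 without control replicate 3). The cause was not tested. Epha2 ran from 1.01 to 1.17 over the same omissions and was 0.70 on log2(FPKM + 1). Epha3 was also called without the filter (adjusted p = 0.00330) and with the replicate block (adjusted p = 0.0328, or 0.0399 with the length trend removed), and Efnb1 without the filter (adjusted p = 0.00171), all by edgeR. The FPKM order rests on counts as low as 18 for Efna1, and its spread limits any comparison there.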
